A study of Mus musculus with 16 samples.

Results

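The genes described here are 8 components of the TGF-β pathway, Tgfb1, Tgfbr1, Tgfbr2, Smad2, Smad3, Smad7, Ski, and Skil, chosen by name. They were chosen with earlier results of these data known. All 8 were found among the 16243 genes shared by the 9 matrices of CD8+ T cells. Their levels were read as CPM, the UMIs of a gene divided by all UMIs of its library and put on the usual CPM scale, over the 56585 of 72639 cells that held at least 1 UMI of Cd8a or Cd8b1. In the accepted kidney at 3 weeks the cells were also divided by the presence of an Itgae UMI. A UMI is a tag that marks 1 captured transcript.

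The cells came from mice with a kidney allograft and were sorted as viable CD45+ cells before droplet sequencing. Accepted allografts were DBA/2J kidneys in C57BL/6 (B6) recipients, and graft and recipient spleen were taken at 1, 3, and 24 weeks. Rejecting allografts were B6 kidneys in DBA/2J recipients, taken with recipient spleen at 1 week, and naive spleen served as the untreated group. The sample labels give strain C57BL/6J and genotype WT for every group and name no transgene or drug. Outcome changed together with graft and recipient strain, so these cannot be told apart between accepted and rejecting mice.

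TGF-β1, the product of Tgfb1, is secreted in a latent complex and signals after release through a receptor of 2 kinase chains, TGFBR1 and TGFBR2. The active receptor phosphorylates SMAD2 and SMAD3, which enter the nucleus with SMAD4. SMAD7 blocks the receptor from within the cell and is itself induced by the signal, while SKI and SKIL (SnoN) hold SMAD complexes in a repressed state. In CD8+ T cells the pathway is known for inducing Itgae, which encodes the CD103 integrin of tissue-resident cells.

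The barcodes carried tags of 32 libraries: 3, 5, and 3 for accepted kidney at 1, 3, and 24 weeks, the same numbers for accepted spleen, 2 for rejecting kidney, 3 for rejecting spleen, and 5 for naive spleen. The labels do not say what a library is, and the study's methods treat every mouse as a sample of its own, with replicate numbers for accepted mice that match the tags. They held 661245 to 22782080 UMIs, except 1 rejecting spleen library with 56 cells and 153266 UMIs. All 7 listed CD8+ T cell markers were found in every group, but at unlike levels. They summed to 6712 to 8085 CPM in accepted kidneys at 1 week and 4861 to 5210 CPM in the spleens. At 3 weeks the sums were 9179 to 9967 and 4443 to 4764 CPM. Cells with a Cd8a or Cd8b1 UMI made up 83.5% to 90.1% of the kidney matrices at 1 week and 96.3% to 97.0% at 3 weeks. In the spleen matrices they made up 41.9% to 49.2% and 44.0% to 51.8%. The 24-week libraries stood against their labels. In those labelled spleen, 8 of 10 genes of kidney parenchyma were found, at 4.63 to 5.56 CPM in sum, and Itgae averaged 212 CPM. In those labelled kidney, 1 of the 10 genes was found, at 0 to 0.474 CPM, and Itgae averaged 23.6 CPM. At 3 weeks the corresponding sums were 7.73 to 12.4 CPM in kidney and 0 to 0.473 CPM in spleen. The 24-week libraries are therefore called by their labels throughout, and their differences from 3 weeks are given by label and not read as changes of a tissue over time.

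Other properties of the libraries moved with the groups. Cells with a UMI of a dividing-cell gene made up 42.9% to 68.6% of cells in accepted kidneys at 1 week and 14.1% to 18.5% at 3 weeks. The summed level of 6 B cell markers was 842 to 1547 CPM in accepted spleen at 1 week and 195 to 222 CPM in the kidneys of that time. The 8 myeloid markers summed to 183 to 281 CPM in kidney and 106 to 126 CPM in spleen at 1 week, and to 213 to 353 and 57.4 to 80.1 CPM at 3 weeks. CD4, NK cell, platelet, and kidney markers summed to at most 36.1 CPM in any library. Mitochondrial transcripts made up 3.67% to 4.48% of UMIs in accepted kidneys at 1 week, 2.05% to 2.38% at 3 weeks, and 1.38% to 1.39% in rejecting kidneys. Red cell markers reached 252 CPM in a rejecting kidney and 122 CPM in a naive spleen. Each test of the 8 members below was repeated without cells that held a marker of another cell type and without cells that held a dividing-cell gene. The first filter used Cd4, Cd79a, Ms4a1, Lyz2, C1qa, Cst3, Ncr1, Pf4, and Hbb-bs, not all markers summed above. It removed 21.5% to 56.7% of the cells of a library, and 41.6% to 47.3% in accepted kidneys at 3 weeks. In sums over the cells of a library, as used here, fewer expressing cells and less RNA per cell cannot be told apart.

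The sequence just upstream of the transcription start is given for both receptors, which moved together across the groups, and for Smad3, which set kidney and spleen apart. The 250 bases are from RefSeq (build GRCm38.p6), 5′ to 3′ on the strand of the gene. Capitals mark CAGAC, the core that SMAD3 and SMAD4 bind, or its reverse complement GTCTG. The first lies at chr4:47352972-47353221 (+), the second at chr9:116175364-116175613 (−), and the third at chr9:63757995-63758244 (−).
Tgfbr1: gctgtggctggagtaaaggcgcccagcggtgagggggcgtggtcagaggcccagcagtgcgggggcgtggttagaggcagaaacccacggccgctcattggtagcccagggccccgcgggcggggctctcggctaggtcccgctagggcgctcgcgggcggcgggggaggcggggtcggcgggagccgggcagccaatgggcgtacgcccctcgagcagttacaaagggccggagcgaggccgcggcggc
Tgfbr2: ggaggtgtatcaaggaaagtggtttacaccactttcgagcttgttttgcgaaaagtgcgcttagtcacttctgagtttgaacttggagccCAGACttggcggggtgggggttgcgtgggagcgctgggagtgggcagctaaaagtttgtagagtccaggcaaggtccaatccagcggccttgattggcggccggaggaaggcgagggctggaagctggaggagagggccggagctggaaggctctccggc
Smad3: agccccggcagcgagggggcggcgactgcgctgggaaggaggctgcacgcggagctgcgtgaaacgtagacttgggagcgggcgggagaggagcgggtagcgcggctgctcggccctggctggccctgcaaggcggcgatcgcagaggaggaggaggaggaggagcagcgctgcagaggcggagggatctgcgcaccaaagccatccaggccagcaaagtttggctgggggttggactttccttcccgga
The motif occurred 1 time for Tgfbr2, 160 bases before the start, and not in these windows of Tgfbr1 and Smad3. RefSeq gives Tgfbr1 a second window, at chr4:47385966-47386215 (+), which held 1 match, 203 bases before its start. It occurred on either strand in 42.2% of all 32851 such windows, so these matches describe the letters and no bound site. Tgfb1 and Ski had no match either. GGGCGG or its reverse complement CCGCCC, the core of the GC box bound by SP1, occurred 2 times for Tgfbr1, 2 times for Smad3, and not for Tgfbr2, against 32.7% of all windows with at least 1.

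Skil, Tgfb1, and Smad3 set graft CD8+ T cells apart from those of the spleen in the same direction in each comparison of the tissues. Skil and Tgfb1 were higher in kidney and Smad3 was lower, in accepted mice at 1 week, in accepted mice at 3 weeks, and in rejecting mice at 1 week. These comparisons share no library. All 3 genes passed the threshold, an adjusted p below 0.05 by the edgeR quasi-likelihood test after Benjamini-Hochberg correction across every gene fitted, in each of them. In the same order, CD8+ T cell markers were higher in kidney for 6 of 7, 7 of 7, and 4 of 7, with median log2 differences of 0.74, 0.91, and 0.81. B cell markers were lower in kidney for 6 of 6, 6 of 6, and 5 of 5 tested. Dividing-cell genes were higher in kidney for 5 of 5, 3 of 4 (1 lower), and 5 of 5 tested. Myeloid markers were higher for 7 of 7, 7 of 7, and 0 of 2 tested. The part of the CD8+ marker difference in the member values was not tested.

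**Figure D1:**
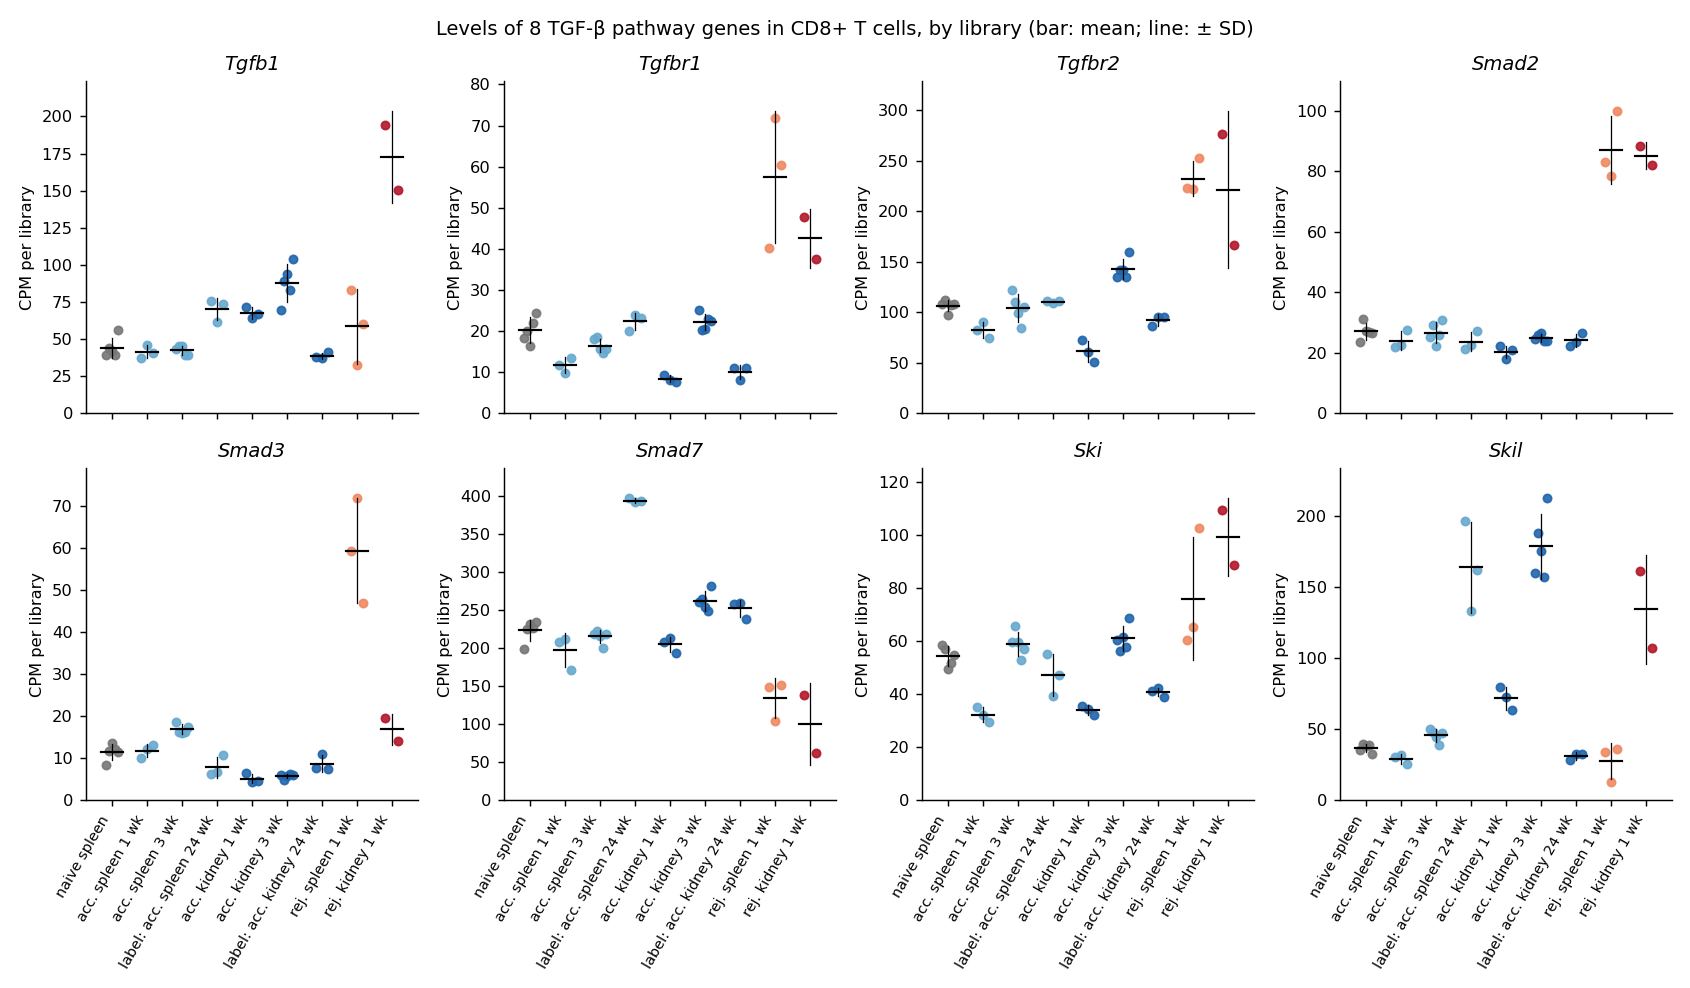
CPM of each gene (vertical axes, from 0) in each library (points) of the 9 groups, with the group mean (bar) and SD (line). Skil lies between 157 and 213 CPM in all 5 accepted kidneys at 3 weeks and between 38.6 and 50.2 CPM in the spleens, while Smad3 is at 4.86 to 6.20 and 16.02 to 18.7 CPM.

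Skil is a SMAD corepressor whose protein is degraded when the pathway is active. The values here are of its RNA, and they measure neither the protein nor the activity of the pathway. Its level at 1 week was 79.5, 72.9, and 63.3 CPM in accepted kidneys and 30.2, 31.6, and 25.3 CPM in the spleens. The groups did not overlap, and the log2 difference was 1.31 (SE 0.13, 2.49-fold, adjusted p = 8.3e-06). At 3 weeks it was 160, 188, 176, 157, and 213 CPM in kidney and 50.2, 47.9, 44.5, 38.6, and 47.3 CPM in spleen. Every kidney library was again above every spleen library, with a log2 difference of 1.96 (SE 0.10, 3.89-fold, adjusted p = 7.3e-13). In rejecting mice the 2 kidney libraries held 162 and 107 CPM and the 3 spleen libraries 34.0, 13.05, and 36.3 CPM, a log2 difference of 2.08 (SE 0.34, adjusted p = 0.00064). Naive spleens were at 32.4 to 39.5 CPM, within the range of the spleens of grafted mice.

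Tgfb1, the ligand, was at 72.0, 64.0, and 67.3 CPM in accepted kidneys at 1 week and 37.5, 46.1, and 40.8 CPM in the spleens. The kidney libraries lay above those of the spleen, by 0.71 on the log2 scale (SE 0.11, 1.64-fold, adjusted p = 0.00029). At 3 weeks it was 69.4, 88.9, 94.0, 83.3, and 104 CPM in kidney and 39.2 to 45.7 CPM in spleen, with a log2 difference of 1.04 (SE 0.10, 2.06-fold, adjusted p = 3.6e-08). The rejecting kidneys held the highest levels of all libraries, 194 and 151 CPM, against 83.1, 32.6, and 60.5 CPM in their spleens. Those of the spleens rest on 66, 5, and 40 UMIs. This difference was 1.42 (SE 0.31, adjusted p = 0.0058).

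Smad3, the signal-carrying SMAD that contacts DNA, ran the other way. At 1 week it was 6.38, 4.35, and 4.61 CPM in accepted kidneys and 10.1, 12.2, and 13.1 CPM in the spleens, a log2 difference of -1.22 (SE 0.20, adjusted p = 0.00039). At 3 weeks it was 6.01, 4.86, 5.67, 6.20, and 6.07 CPM in kidney and 18.7, 16.3, 16.02, 16.3, and 17.5 CPM in spleen. No library overlapped, and the log2 difference was -1.55 (SE 0.13, adjusted p = 3.3e-09). In rejecting mice the kidneys held 19.5 and 14.2 CPM and the spleens 59.2, 71.8, and 46.9 CPM, with a log2 difference of -1.76 (SE 0.35, adjusted p = 0.0027). The counts behind Smad3 were small, 237 UMIs over the kidneys of 1 week, 300 over those of 3 weeks, 75 over the rejecting kidneys, and 89 over the rejecting spleens. Smad2, its close relative, differed by -0.25 (-0.56 to 0.06, 95% interval) at 1 week, -0.09 (-0.30 to 0.11) at 3 weeks, and -0.06 (-0.64 to 0.52) in rejecting mice and passed in none, although at 3 weeks TMM factors, which scale libraries so that the bulk of genes is level, brought it to -0.36 with an adjusted p of 0.0053 by edgeR, and at 1 week to -0.36 with an adjusted p of 0.028.

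The other members differed between the tissues at 1 time or by less. At 1 week both receptors were lower in kidney, Tgfbr1 by -0.50 (SE 0.18, adjusted p = 0.033) and Tgfbr2 by -0.43 (SE 0.13, adjusted p = 0.019). These calls were not firm, since leaving out kidney library 2 or 3 or spleen library 1 or 3 ended that of Tgfbr1 (-0.49, -0.43, -0.50, and -0.37), and leaving out kidney library 3 or spleen library 1 or 2 ended that of Tgfbr2 (-0.31, -0.43, and -0.36). At 3 weeks they were higher, by 0.42 (SE 0.11, adjusted p = 0.0029) and 0.44 (SE 0.08, adjusted p = 9.4e-05), and Smad7 was higher by 0.28 (SE 0.06, adjusted p = 0.00039). The median difference of all genes was 0.28 at 3 weeks, and against it Tgfbr1 lay at 0.14, Tgfbr2 at 0.16, and Smad7 at -0.0043, and with TMM factors none of the 3 passed. Ski was at 0.08 (-0.18 to 0.33) and 0.05 (-0.12 to 0.21), and at 3 weeks it turned to -0.22 (adjusted p = 0.021 by edgeR) with TMM factors. Of all genes tested, 49.3% passed at 1 week (29.9% higher and 19.4% lower in kidney), 65.4% at 3 weeks (48.6% and 16.8%), and 17.3% in rejecting mice (11.5% and 5.77%), beside 5, 6, and 3 of the 8 members. The share of calls that were higher in kidney was 60.7%, 74.3%, and 66.6%, and with TMM factors 49.8%, 51.9%, and 47.9%. Counted by libraries that did not overlap, the members numbered 5 of 8 at 1 week, 6 of 8 at 3 weeks, and 3 of 8 in rejecting mice, against 53.9%, 44.2%, and 40.9% of all genes. Fits that left 1 rejecting kidney library are not counted here. Among the other alternatives tried for the 3 comparisons, the calls of Skil and Smad3 held in all. That of Tgfb1 held in all but 1, the rejecting comparison without the spleen library of 60.5 CPM (1.37, adjusted p = 0.051, edgeR).

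**Figure D2:**
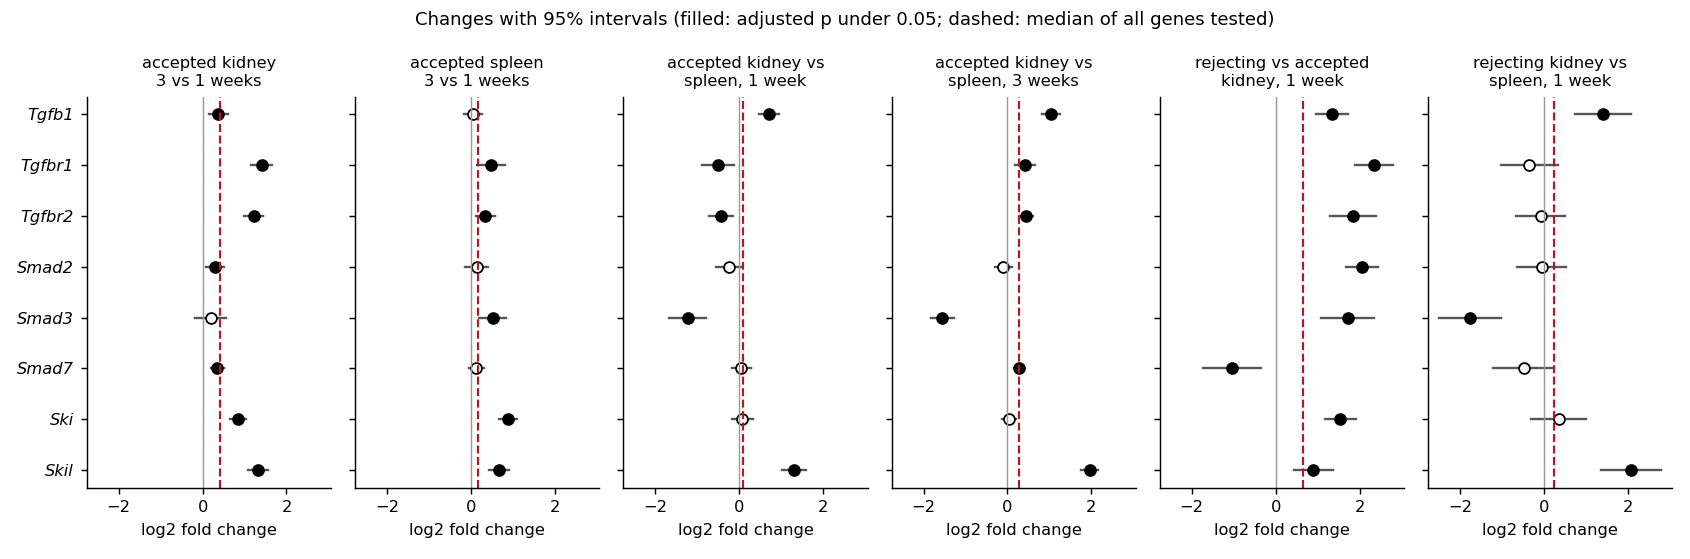
Log2 fold changes (horizontal axes) of the 8 genes in 6 comparisons, with 95% intervals, filled where the adjusted p is below 0.05. The dashed line is the median of all genes tested, and Skil lies right of it and Smad3 left of it in the 3 comparisons of kidney with spleen.

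From 1 to 3 weeks in the accepted kidney, both receptors and both SKI family genes rose beyond the shift of all genes. Scaled by library totals, the median gene was 0.41 higher at 3 weeks on the log2 scale, and 71.6% of all calls were higher, against 49.7% with TMM factors. Tgfbr1 went from 9.36, 8.25, and 7.68 CPM to 25.1, 20.2, 20.7, 23.0, and 22.4 CPM, a log2 change of 1.41 (SE 0.12, 2.66-fold, adjusted p = 6.0e-08), or 1.00 above the median gene. Tgfbr2 went from 72.6, 60.4, and 51.4 CPM to 135, 143, 142, 135, and 160 CPM, a change of 1.22 (SE 0.11, 2.33-fold, adjusted p = 9.5e-08), or 0.81 above the median gene. No library of 1 week reached the lowest of 3 weeks for either chain. Markers of other cells also moved, with 4 of 6 B cell markers higher (sums of 195 to 222 and 203 to 278 CPM), 2 of 3 CD4 markers lower (21.2 to 36.1 and 5.01 to 8.65 CPM), and 3 of 8 myeloid markers higher and 1 lower. Without cells that held a marker of other cells, the changes were 1.503 for Tgfbr1, 1.202 for Tgfbr2, 1.43 for Skil, and 0.81 for Ski, and all 4 passed.

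Skil rose by 1.32 on the log2 scale (SE 0.11, 2.49-fold, adjusted p = 6.9e-08), 0.91 above the median gene, from the kidney levels given above. Ski, the other corepressor, went from 35.6, 34.6, and 32.1 CPM to 60.7, 56.5, 61.8, 57.9, and 68.8 CPM, a change of 0.85 (SE 0.09, 1.80-fold, adjusted p = 6.5e-07), or 0.43 above it. Both groups were again separate. Without cells that held a dividing-cell gene, the changes were 1.56 for Tgfbr1, 1.06 for Tgfbr2, 1.42 for Skil, and 0.82 for Ski, and all 4 still passed. With the median shift of genes of like intron length taken out, Tgfbr1 kept 0.72, Tgfbr2 0.54, and Skil 1.08, while Ski was left with 0.15 (adjusted p = 0.10, edgeR).

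Smad7, Tgfb1, and Smad2 also passed but moved no more than the median gene. Smad7 changed by 0.35 (SE 0.08, adjusted p = 0.00063), from 208, 213, and 193 CPM to 260, 264, 254, 248, and 282 CPM. Tgfb1 changed by 0.38 (SE 0.11, adjusted p = 0.0062) and Smad2 by 0.30 (SE 0.10, adjusted p = 0.013). With TMM factors these became -0.033, -0.0079, and -0.088, and none passed. Smad2 also lost its call without library 2 of 1 week (0.22, adjusted p = 0.059, edgeR), and Smad7 without cells with a dividing-cell gene (0.078, adjusted p = 0.38). Smad3 did not pass, at 0.19 (-0.17 to 0.55). With genes of like intron length as the reference, Smad2 (-0.40, adjusted p = 0.001, edgeR) and Smad3 (-0.61, adjusted p = 0.0020) passed as lower. The 7 of 8 members called, all higher, stand beside 74.8% of all genes called and 53.5% called higher, and the 6 of 8 whose libraries did not overlap stand beside 61.2%.

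In the accepted spleen over the same weeks, Ski, Skil, Smad3, and both receptors were higher at 3 weeks. Ski went from 35.1, 32.3, and 29.7 CPM to 59.7, 65.7, 59.7, 52.9, and 57.2 CPM, by 0.88 (SE 0.10, 1.84-fold, adjusted p = 2.0e-06), close to its change in kidney. Skil changed by 0.67 (SE 0.11, adjusted p = 9.9e-05), Smad3 by 0.52 (SE 0.15, adjusted p = 0.0092), Tgfbr1 by 0.48 (SE 0.16, adjusted p = 0.018), and Tgfbr2 by 0.35 (SE 0.10, adjusted p = 0.010). The median gene changed by 0.17, and of all genes 49.3% passed, 31.9% as higher and 17.4% as lower, beside 5 of 8 members, all higher. The libraries of 4 members did not overlap, against 35.8% of genes. Of the calls 64.7% were higher, against 47.5% with TMM factors. With TMM factors Ski, Skil, and Smad3 still passed and the receptors did not (Tgfbr1 0.34, adjusted p = 0.090, and Tgfbr2 0.20, adjusted p = 0.11, edgeR). Smad3 lost its call with DESeq2 (0.37, adjusted p = 0.15) and without library 1 of 1 week (0.42, adjusted p = 0.054, edgeR), and Tgfbr1 without library 2 of 1 week (0.38, adjusted p = 0.087, edgeR) and without cells with a marker of other cell types (0.40, adjusted p = 0.14). With genes of like intron length as the reference, Smad3 was at 0.070 (adjusted p = 0.75, edgeR), Tgfbr1 at 0.091, and Tgfbr2 at -0.049. In the same spleens all 6 B cell markers were lower at 3 weeks, from sums of 842 to 1547 CPM to 398 to 772 CPM, and all 5 dividing-cell genes were lower, from 257 to 655 CPM to 29.6 to 41.0 CPM. Without cells with a dividing-cell gene Smad3 was at 0.55 and still passed.

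The change from 1 to 3 weeks was larger in kidney than in spleen for Tgfbr2, Tgfbr1, and Skil. As an interaction in edgeR, the excess was 0.88 (SE 0.15, adjusted p = 0.00016) for Tgfbr2, 0.93 (SE 0.19, adjusted p = 0.00065) for Tgfbr1, and 0.64 (SE 0.16, adjusted p = 0.0040) for Skil, where the median gene had 0.23. In the same interaction 5 of 6 B cell markers, 5 of 7 CD8+ T cell markers, and 2 of 8 myeloid markers were higher, and 2 of 3 CD4 markers were lower. For Ski the difference of the changes was -0.03 (-0.30 to 0.24), and for Tgfb1 0.33 (0.0025 to 0.65), Smad7 0.22 (-0.01 to 0.45), Smad2 0.16 (-0.18 to 0.49), and Smad3 -0.33 (-0.78 to 0.12), none past the threshold. The 3 members called, all higher in kidney, compare with 33.8% of all genes called, 24.3% called in that direction, and 9.51% in the other. That direction held 71.9% of all calls, against 49.6% with TMM factors. The interaction held for both receptors in all alternatives tried and for Skil in all but DESeq2, which gave 0.41 and an adjusted p of 0.063. All these fits took kidney and spleen libraries as independent, and none paired those of the same number. Tgfb1 passed without library 1 of the 3-week kidneys (0.40, adjusted p = 0.023, edgeR) and without cells with a dividing-cell gene (0.58, adjusted p = 0.0097). Smad7 passed without library 3 of the 1-week spleens (0.32, adjusted p = 0.030, edgeR), and Smad3 with genes of like intron length as the reference (-0.68, adjusted p = 0.012).

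**Figure D3:**
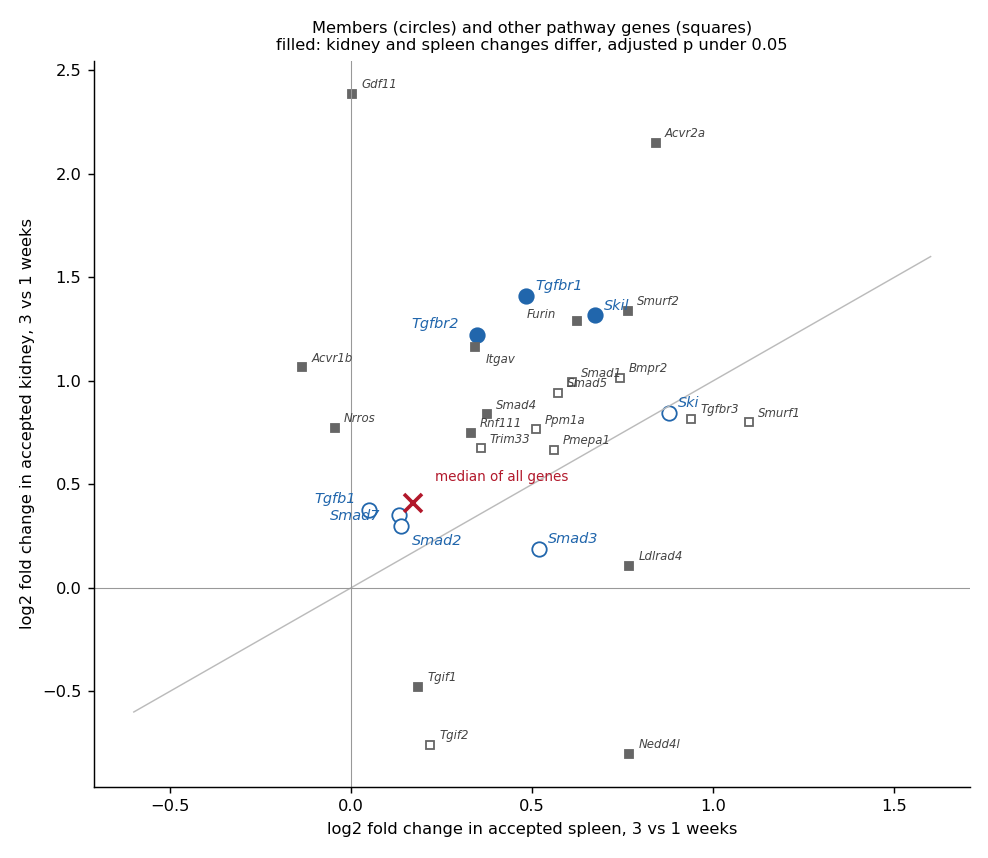
Log2 fold change from 1 to 3 weeks in accepted spleen (horizontal) and accepted kidney (vertical) for the 8 members (circles) and 21 other pathway genes tested in both (squares), filled where the changes differ with an adjusted p below 0.05. The line marks equal change and the cross the median of all genes, 0.17 and 0.41, and the receptors and Skil lie above both.

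Other genes of the pathway, from a list of 45 ligands, activators, receptors, SMADs, and cofactors, gave the surroundings of these changes. In the accepted kidney 27 of the 45 could be tested from 1 to 3 weeks. Of these 19 rose and 4 fell, with a median of 0.80 beside 0.41 for all genes, of which 53.5% rose and 21.3% fell. Among them were Gdf11, a ligand of activin-type receptors (2.39, from 7.95 ± 1.94 to 40.6 ± 4.41 CPM, mean ± SD, n = 3 and 5), Smurf2, a ubiquitin ligase that acts with SMAD7 on the receptor (1.34), Furin, which cleaves the TGF-β precursor (1.29), and Itgav, the αv chain of the integrins that release latent TGF-β (1.16). Smad5, a SMAD of the BMP branch, rose by 0.94, and Smad4, the shared partner of SMAD2 and SMAD3, by 0.84. In spleen 16 of 23 rose and none fell, with a median of 0.57 beside 0.17 and beside 31.9% and 17.4% of all genes. The change differed between the tissues for 12 of 29, 9 in favor of kidney and 3 of spleen, beside 24.3% and 9.51% of all genes, among them Gdf11 (2.39), Itgav (0.82), Nrros, which anchors latent TGF-β (0.82), Furin (0.66), Smurf2 (0.57), and Smad4 (0.46) on the kidney side, and Tgif1, a SMAD corepressor (-0.67), and Ldlrad4, which restrains receptor signaling (-0.66), on the other.

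Between kidney and spleen, genes of the same list lay on both sides. Itgav was 2.45 higher in kidney on the log2 scale at 1 week, 3.27 at 3 weeks, and 3.47 in rejecting mice. Pmepa1, a TGF-β-induced inhibitor of the pathway, was 1.91, 2.02, and 2.51 higher. On the other side, Nrros was at -1.75 at 1 week and -0.94 at 3 weeks, and Smad1, a SMAD of the BMP branch, at -1.20 at 3 weeks. Of the pathway genes tested 9 were higher and 11 lower in kidney among 25 at 1 week, 11 and 8 among 24 at 3 weeks, and 3 and 3 among 19 in rejecting mice, where all genes gave 29.9% and 19.4%, 48.6% and 16.8%, and 11.5% and 5.77%. Of 10 genes known to be raised by TGF-β in other settings, 6 passed the filter on low counts at 3 weeks, and since some passed it only through the kidney, where they were high, their values are a description. Cdh1 was at 45.2 to 50.0 CPM in kidney and 0 to 2.54 CPM in spleen, Rgs16 at 48.2 to 58.1 and 0.945 to 1.602 CPM, and Cd101 at 34.6 to 36.1 and 3.56 to 5.08 CPM. Itgae, on which the cells were divided and which was named with its value known, was at 227 to 258 and 25.8 to 35.3 CPM, and Id3 was lower in kidney, at 2.67 to 5.21 against 24.1 to 43.4 CPM. From 1 to 3 weeks in kidney the same list had 3 genes higher and 2 lower of 8 tested, beside 53.5% and 21.3% of all genes. The change differed from that in spleen for 3 of 8, 2 higher and 1 lower, beside 24.3% and 9.51%. Itgae was among the higher genes in both counts. The lists were chosen with earlier results of these data known, so their counts are a description. Of 10 known to be lowered, 8 were tested between kidney and spleen at 3 weeks and 5 were lower in kidney, beside 16.8% of all genes, with Klf2 (-3.27) and S1pr1 (-5.04) the farthest, while 3 were higher, among them Gzma (2.95) and Tbx21 (2.68).

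Rejecting kidneys at 1 week held more of 7 members than accepted kidneys and less Smad7. Tgfbr1 was 47.7 and 37.6 CPM in the 2 rejecting libraries, 2.34 above accepted kidneys on the log2 scale (SE 0.20, 5.05-fold, adjusted p = 3.1e-05). Smad2 was 88.2 and 82.1 CPM against 22.1, 18.03, and 20.8 CPM (2.06, SE 0.17, adjusted p = 2.6e-05), and Tgfbr2 277 and 167 CPM (1.85, SE 0.24, adjusted p = 0.00027). Every rejecting library lay above every accepted one for each of these. Smad3 (1.71, SE 0.28), Ski (1.54, SE 0.16), Tgfb1 (1.35, SE 0.17), and Skil (0.90, SE 0.21) were higher too, with adjusted p-values of 0.0009, 9.5e-05, 0.00022, and 0.0055 by edgeR. Without the rejecting library of 162 CPM, Skil was at 0.58, a value from the 1 rejecting library left. The mitochondrial share was lower in both rejecting kidneys than in any accepted one, as given above, and its part in these differences was not tested. Cell markers moved as well. In rejecting kidneys 2 of 8 myeloid markers were higher, with sums of 290 to 345 CPM against 183 to 281 CPM. Of 3 CD4 markers 2 were lower, and 1 of 2 NK cell markers tested was lower. Of 7 CD8+ T cell markers 2 were higher and 3 lower.

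Smad7 was 139 and 61.7 CPM in rejecting kidneys and 208, 213, and 193 CPM in accepted ones (-1.04, SE 0.30, adjusted p = 0.016), with both rejecting libraries below the accepted range. The size rested on single libraries. Without the rejecting library of 61.7 CPM it was -0.56 and without that of 139 CPM -1.73, values that each rest on 1 rejecting library and carry no spread of that group. Without the accepted library of 208 or 213 CPM the adjusted p was 0.059 or 0.052 by edgeR. The median gene was 0.66 higher in rejecting kidneys, and 81.8% of calls were higher against 50.8% with TMM factors. Relative to that median Skil was 0.24 higher, and with TMM factors it did not pass (adjusted p = 0.36). With genes of like intron length as the reference, 4 members passed, namely Tgfbr1 (1.03), Smad2 (0.76), Tgfb1 (1.08), and Smad7 (-1.46). Tgfbr2 (0.54, adjusted p = 0.068, edgeR), Skil (0.48, adjusted p = 0.11), and Ski (0.23, adjusted p = 0.20) did not pass there, and Smad3 turned to -0.19 (adjusted p = 0.53). The 8 members called stand beside 57.9% of all genes, and all 8 were separate between the libraries, against 70.4% of genes.

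The spleens of rejecting mice held levels of the same kind. Tgfbr1 was 40.3, 71.8, and 60.5 CPM there (32, 11, and 40 UMIs), Tgfbr2 223, 222, and 253 CPM, and Smad2 83.1, 78.3, and 99.8 CPM (66, 12, and 66 UMIs). For each gene these overlapped the rejecting kidneys and lay above every library of the accepted and naive groups. Smad7, at 149, 104, and 151 CPM, was below all of them. Mitochondrial transcripts made up 1.73% to 1.90% of UMIs in the rejecting spleens and 3.49% to 6.25% in the other libraries labelled spleen. The rejecting spleens were not tested against accepted or naive spleen, and these levels are scaled by library totals only, without intron length taken out. Rejecting kidney and spleen did not differ past the threshold in Tgfbr1 (-0.35, -1.03 to 0.34), Tgfbr2 (-0.08, -0.66 to 0.51), Smad2, Smad7 (-0.48, -1.20 to 0.24), or Ski (0.35, -0.30 to 0.99). With 1 rejecting kidney library in place of 2 the Smad7 difference was -1.18 or -0.014, depending on whether that of 139 or that of 61.7 CPM was left out. Dividing-cell genes were found in 30.1% and 77.9% of cells in the rejecting kidneys, and without such cells all 8 members still passed against accepted kidneys, Smad7 at -0.93.

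Against naive spleen, the spleen of accepted mice at 1 week had less Ski, Tgfbr1, Tgfbr2, and Skil. Ski was at 58.6, 57.0, 49.5, 51.8, and 54.8 CPM in naive spleens, a difference of -0.75 (SE 0.09, adjusted p = 2.1e-06), and at 3 weeks the accepted spleens were at 52.9 to 65.7 CPM. Tgfbr1 differed by -0.77 (SE 0.15, adjusted p = 0.00031), Tgfbr2 by -0.37 (SE 0.08, adjusted p = 0.00077), and Skil by -0.36 (SE 0.10, adjusted p = 0.0070). These 4 of 8 members did not overlap between the groups, against 45.0% of genes. Of all genes 57.6% passed and 36.5% passed as lower, and the median gene was at -0.17. The calls were 36.6% higher, against 51.9% with TMM factors, under which Skil lost its call (-0.20, adjusted p = 0.12, edgeR). With genes of like intron length as the reference, Tgfbr2 turned to 0.030 and Skil did not pass (-0.20, adjusted p = 0.12, edgeR), while Smad3 passed as higher (0.48, adjusted p = 0.019). With DESeq2 neither Tgfbr2 (-0.21, adjusted p = 0.052) nor Skil (-0.20, adjusted p = 0.24) passed, and Skil lost its call without library 3 of 1 week (-0.26, adjusted p = 0.053, edgeR). Smad7 was at -0.18 (adjusted p = 0.069, edgeR) and passed without library 2 of 1 week (-0.24, adjusted p = 0.042) or naive library 1 (-0.22, adjusted p = 0.033). Tgfb1, at -0.09, passed without cells with a marker of other cell types (-0.44, adjusted p = 0.0057, edgeR). All 6 B cell markers were higher at 1 week, with sums of 842 to 1547 CPM against 256 to 336 CPM, and all 5 dividing-cell genes were higher, at 257 to 655 CPM against 16.9 to 31.0 CPM. Of the markers tested, CD4 markers were higher for 2 of 2, myeloid markers for 3 of 3, and NK cell markers for 1 of 1. The 3 red cell markers tested were lower, and all 4 summed to 0.184 to 2.67 CPM against 3.72 to 122 CPM. Of the other pathway genes 14 of 23 were lower and none was higher, beside 36.5% and 21.1% of all genes.

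Within the accepted kidney at 3 weeks, the members differed by small folds between cells with and cells without an Itgae UMI. The 7400 cells with the UMI and 14087 without it were summed apart in each of the 5 libraries, at medians of 2053 to 3064 and 1933 to 2940 UMIs per cell, and compared within the library. A cell without a UMI may still express Itgae. Of the 8 members 3 passed, 1 higher and 2 lower, beside 7.97% of all genes, 4.07% higher and 3.9% lower.

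Smad7 was lower in cells with an Itgae UMI in all 5 libraries, at 249, 249, 249, 225, and 261 CPM against 268, 273, 257, 260, and 292 CPM. The log2 difference was -0.13 (SE 0.03, adjusted p = 0.001). Ski was higher in all 5, at 67.6, 58.3, 65.0, 63.7, and 74.3 CPM against 55.2, 55.5, 59.9, 54.9, and 66.0 CPM (0.18, SE 0.05, adjusted p = 0.028). Tgfb1 was lower in 4 of 5, at 63.0, 72.2, 90.0, 87.0, and 91.0 CPM against 74.4, 98.2, 96.4, 81.4, and 111 CPM (-0.19, SE 0.05, adjusted p = 0.0089). The differences were of at most 1.14-fold. For Tgfb1 the log2 difference per library, with 1 CPM added, ran from -0.44 to 0.095 with an SD of 0.20, wider than its SE from the fit conveys. No member passed with DESeq2, and after each cell was thinned to 1000 UMIs only Smad7 passed (-0.16, adjusted p = 0.049, edgeR). Without library 5, Smad7 alone passed. Tgfb1 also lost its call without library 2 (-0.14, adjusted p = 0.14, edgeR), and Ski without library 1 (0.15, adjusted p = 0.17), without library 4 (0.17, adjusted p = 0.090), and without cells with a dividing-cell gene (0.14, adjusted p = 0.21). Without cells holding a marker of other cell types, Tgfb1 (-0.21, adjusted p = 0.054, edgeR) and Ski (0.22, adjusted p = 0.074) did not pass. Without the library as a block, none of the members passed.

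The genes that rose most over time did not pass in this split. Skil was at 178 ± 18.9 CPM with an Itgae UMI and 179 ± 25.7 CPM without (mean ± SD, n = 5), a log2 difference of -0.01 (-0.08 to 0.06). Tgfbr2 differed by 0.07 (-0.01 to 0.14) and Tgfbr1 by 0.20 (0.02 to 0.38, adjusted p = 0.22), the latter higher in all 5 libraries. Smad2 (0.04, -0.13 to 0.22) and Smad3 (0.09, -0.31 to 0.49) had wide intervals, the latter on 12 to 49 UMIs per sum. Of the other pathway genes 21 could be tested, 5 were higher, and 1 was lower in cells with an Itgae UMI, beside 4.07% and 3.9% of all genes. They included Ldlrad4 (0.63) and Pmepa1 (0.34), both inhibitors of the pathway, Nrros (0.38), Gdf11 (0.27), and, as the lower one, Itgav (-0.33). Of the genes known to be raised by TGF-β, 6 were tested besides Itgae, of which Cdh1 (0.42) and Cd101 (0.27) were higher and Rgs16 was lower (-0.60). Of those known to be lowered, 8 were tested, of which 3 were lower, among them Eomes (-1.77) and Il18rap (-1.05), and Gzma was higher (2.27). Markers of B cells summed to 208 to 294 CPM with the UMI and 201 to 270 CPM without, and myeloid markers to 207 to 338 and 219 to 361 CPM.

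**Figure D4:**
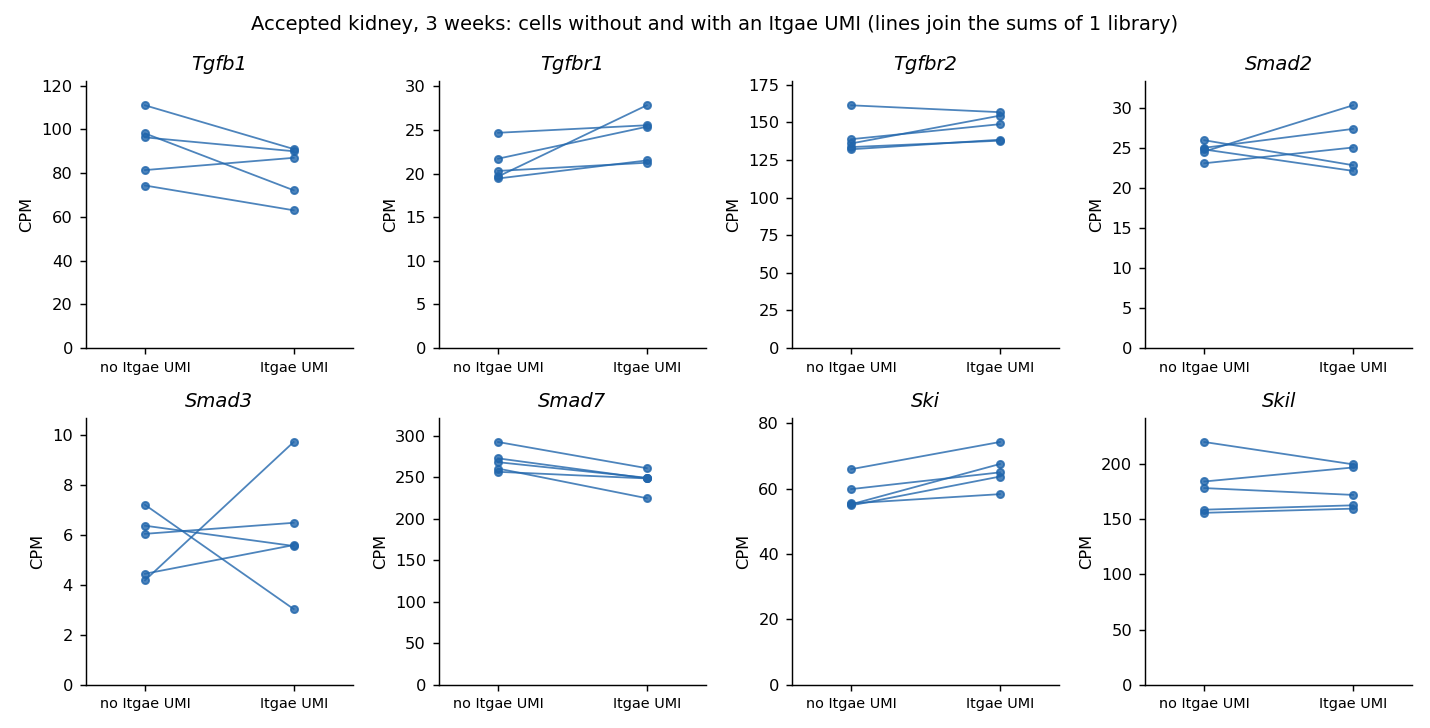
CPM of the 8 members (vertical axes, from 0) in cells without and with an Itgae UMI of the accepted kidney at 3 weeks, with lines joining the 2 sums of each of 5 libraries. Smad7 falls and Ski rises along all 5 lines, and the lines of Skil are nearly level.

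In accepted kidneys at 1 week the same split is given without a test. There, where 1371 cells held an Itgae UMI, Skil was at 94.8 ± 10.2 CPM with it and 68.0 ± 7.55 CPM without (mean ± SD, n = 3), higher in 3 of 3 libraries. Ski was at 43.5 ± 3.17 and 32.7 ± 1.36 CPM and Tgfb1 at 76.5 ± 3.71 and 66.2 ± 4.82 CPM, both higher in 3 of 3. In all, 7 of the 8 members were higher in 3 of 3, and Smad7 was higher in 1 of 3. Of the 11094 genes with a UMI in each sum, Itgae left out, 27.1% were higher in every library and 12.3% lower. Cells with the UMI were deeper there, at medians of 2588.5, 4445, and 3317 UMIs against 2008, 3594.5, and 2621.

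The levels of the 24-week libraries are given by label, and what they say of kidney or spleen cannot be read while the labels stand against the data. Skil was at 28.3, 32.4, and 32.9 CPM in those labelled kidney and 196, 133, and 162 CPM in those labelled spleen. Against 3 weeks of the same label this was -2.51 (SE 0.12, adjusted p = 2.6e-11) and 1.84 (SE 0.11, adjusted p = 2.1e-12). Tgfb1 differed by -1.17 (SE 0.12, adjusted p = 4.0e-07) and 0.72 (SE 0.11, adjusted p = 3.3e-06). Smad3 was 0.58 higher (SE 0.19, adjusted p = 0.012) under the kidney label and -1.11 (SE 0.20, adjusted p = 4.2e-05) under the spleen label. The first lost its call without 24-week library 2 (0.37, adjusted p = 0.13, edgeR) and without cells with a marker of other cell types (0.29, adjusted p = 0.35), and it was 1.38 with genes of like intron length as the reference.

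Smad7 was at 397, 392, and 393 CPM in the libraries labelled spleen, the highest of all 9 groups, with no overlap with any other. This was 0.87 above the spleens of 3 weeks (SE 0.07, adjusted p = 8.3e-10), and the accepted kidneys of 3 weeks were at 248 to 282 CPM. Under the kidney label Smad7 was at 258, 259, and 239 CPM, a difference of -0.05 (-0.20 to 0.09) from 3 weeks under that label. With TMM factors it became 0.42 (adjusted p = 3.8e-05, edgeR). The median gene was at -0.51 without them, and 20.04% of calls were higher, against 48.3% with TMM factors. Of the members 6 passed under each label, beside 71.0% of all genes under the kidney label (14.2% higher and 56.7% lower) and 58.5% under the spleen label (31.1% and 27.4%). Under the kidney label 6 members did not overlap, against 61.9% of genes, and under the spleen label 5, against 46.9%. Of the other pathway genes 7 were higher and 15 lower under the kidney label, among 26, and 10 and 9 under the spleen label, among 24.

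Over the 9 groups the range of each gene was set in most cases by the rejecting mice. Smad3 spanned 11.6-fold between its highest and lowest group mean, rejecting spleen at 59.3 ± 12.4 CPM and accepted kidney at 1 week at 5.12 ± 1.11 CPM. The former rests on 89 UMIs in all. Tgfbr1 spanned 6.82-fold between the same groups, and Skil 6.43-fold, from rejecting spleen at 27.8 ± 12.8 CPM to accepted kidney at 3 weeks at 179 ± 22.8 CPM. The place of rejecting spleen as lowest in Skil rests on the library of 56 cells, with 2 Skil UMIs and 13.05 CPM. The others were at 34.0 and 36.3 CPM, above the 25.3 to 31.6 CPM of accepted spleen at 1 week. Next to each other in that order, accepted kidney at 3 weeks, the libraries labelled spleen at 24 weeks, and rejecting kidney overlapped in Skil, and all 3 stood apart from the next, accepted kidney at 1 week, which stood apart from accepted spleen at 1 and 3 weeks, rejecting spleen, and naive spleen. For Smad2 the 7 groups of accepted and naive mice lay between 20.3 and 27.1 CPM on average, each overlapping the next.

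The genes most like each member over the 9 group means of log2(CPM + 1) were taken from 7447 genes with at least 20 CPM in a group mean. They were Fam53c (Pearson r = 0.99), Purb (0.99), and Cdh1 (0.99) for Skil, Phf2 (0.99), Med13l (0.99), and Zfp148 (0.98) for Ski, and Susd6 (0.99), Fryl (0.98), and Pag1 (0.98) for Tgfbr1. For Tgfbr2 they were Maco1, Gm12216, and Scarb2 (0.99 each), for Tgfb1 Dpy19l4, Atp6v1g2, and Tm9sf3 (0.99 each), and for Smad2 Camk1d, Tspan5, and Suclg2 (1.00 each). Smad3 was most like Rffl (0.98), Fam49a, and Asap1 (0.97 each), and Smad7 most like Oat, A930006K02Rik, and Smim26 (0.96 each). Among the members themselves the closest pair was Tgfbr1 and Tgfbr2 (0.96), and Smad2 and Smad7 were the most opposed (-0.82). The 9 points share their libraries, scaling, and shift with every gene. In Smad2 the rejecting groups stood far from the rest, at 85.2 and 87.1 CPM on average against 20.3 to 27.1 CPM in the others. The weight of the rejecting groups in these correlations was not tested.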

How the data were processed

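CD8+ T cells were measured by droplet single-cell RNA sequencing of sorted CD45+ cells, and the authors deposited raw UMI counts per gene and cell made with Cell Ranger on mm10 (submitters' processing notes). The CD45+ matrices were not used here. Barcode tags named the library, and counts were summed per library over cells with a Cd8a or Cd8b1 UMI, without doublet calling. Sums were scaled by library totals, filtered with filterByExpr, and compared by the quasi-likelihood test of edgeR 4.0.16 in R 4.3.3, with Benjamini-Hochberg adjustment over all genes and a threshold of 0.05. Sums with and without an Itgae UMI were compared with the library as a block. Code was tested on simulated data. The members and lists were chosen with earlier results of these data known. Of other pathway genes and targets, at most 4 per list and comparison were named, the called genes that changed most, leaving out those that averaged under 10 CPM. Itgae was named beside these. Alternatives were TMM factors, DESeq2 1.42.0, no filter, all cells, cells without other markers or dividing-cell genes, intron length taken out in 10 groups (16012 of 16243 genes matched), thinning to 1000 UMIs, at least 2 Itgae UMIs, a library block, and each library left out. Kidney and spleen libraries of the same number deviated together (correlations 0.22, 0.15, and 0.30 at 1 week, and 0.47, 0.15, 0.11, 0.16, and 0.10 at 3 weeks), a pairing read from tags and data. Kidney libraries 3 and 5 of 3 weeks correlated more with a spleen of another number (0.17 and 0.14), and library 2 about as much (0.15). Where 1 of the 2 rejecting kidney libraries was left out, the other was taken to vary like the group it was compared with, and no p from such a fit is given. Standard errors and intervals come from the edgeR fit, which draws the spread between libraries partly from all genes. They can therefore be narrower than the spread of a single gene. In the Itgae split, for example, the log2 differences of Smad3 had an SD of 0.75 over the libraries, with 1 CPM added to each sum. The depth of the libraries is given in the report.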

Additional observations from a re-analysis of the deposited data

Results flagged for a closer look

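Smad7 had 1 library far below the others in each of 2 groups of 5. In accepted spleen at 3 weeks the lowest library was at 200.4 CPM and the others at 216 to 223 CPM. In naive spleen the lowest was at 199 CPM and the others at 226 to 234 CPM. In all 24 sets of 5 libraries were examined, 3 groups for each of 8 genes, and chance marks about 1 in 20.

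The change from 1 to 3 weeks differed between kidney and spleen for 3 members. The change in kidney minus that in spleen was 0.88 for Tgfbr2, 0.93 for Tgfbr1, and 0.64 for Skil on the log2 scale, each by the interaction term of edgeR, and 33.8% of all genes passed that test.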

How the results depend on the processing

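Of 1352 values of 88 member results under alternatives, 1179 kept their direction and side of the threshold, 76 lost and 17 gained a call, and 80 turned in direction. These counts include the fits that left 1 rejecting kidney library, whose p-values are not given. Counts of called members became 4 (kidney 3 against 1 week) and 3 (spleen 3 against 1 week) with TMM factors, 4 (kidney 3 against 1 week) and 2 (spleen 3 against 1 week) and 2 (spleen at 1 week against naive) and 0 (the Itgae split) with DESeq2, 2 (spleen 3 against 1 week) and 4 (rejecting against accepted kidney) with intron length taken out, 1 (the Itgae split) without cells with other markers, 0 (the Itgae split) without the block, 1 (the Itgae split) with thinned cells. With 1 library left out, the count ran from 3 to 5 in kidney against spleen at 1 week and 1 to 3 in the Itgae split. The replicate block by library number left the counts of kidney against spleen at 5 and 6 and changed no member's call. It was run for accepted kidney against spleen at 1 and 3 weeks only, and not for the difference of changes. With TMM factors, members turned as follows: in kidney 3 against 1 week Tgfb1 -0.0079, Smad2 -0.088, Smad3 -0.19, Smad7 -0.033, in kidney label 24 against 3 weeks Smad2 0.44, Smad7 0.42, in spleen 3 against 1 week Tgfb1 -0.094, Smad2 -0.0055, Smad7 -0.014, in kidney against spleen at 1 week Smad7 -0.053, Ski -0.032, in kidney against spleen at 3 weeks Ski -0.22, in spleen at 1 week against naive Tgfb1 0.069, Smad2 0.0069, in the difference of changes Smad2 -0.022. With DESeq2, members turned as follows: in kidney 3 against 1 week Tgfb1 -0.016, Smad2 -0.097, Smad3 -0.20, Smad7 -0.041, in kidney label 24 against 3 weeks Smad2 0.44, Smad7 0.42, in spleen 3 against 1 week Tgfb1 -0.099, Smad2 -0.0060, Smad7 -0.017, in kidney against spleen at 1 week Smad7 -0.036, Ski -0.015, in kidney against spleen at 3 weeks Ski -0.22, in spleen at 1 week against naive Tgfb1 0.069, Smad2 0.0028, in the difference of changes Smad2 -0.073, Smad7 -0.015. Without dividing cells, members turned as follows: in kidney 3 against 1 week Smad3 -0.051, in rejecting kidney against spleen Tgfbr2 0.16, in the difference of changes Ski 0.0055. With intron length taken out, members turned as follows: in kidney 3 against 1 week Smad2 -0.40, Smad3 -0.61, in kidney label 24 against 3 weeks Tgfbr2 0.080, Smad2 0.66, Smad7 0.51, Ski 0.12, in spleen 3 against 1 week Tgfb1 -0.048, Tgfbr2 -0.049, Smad2 -0.25, Smad7 -0.0055, in kidney against spleen at 1 week Smad7 -0.12, in kidney against spleen at 3 weeks Smad7 -0.0023, Ski -0.24, in rejecting against accepted kidney Smad3 -0.19, in spleen at 1 week against naive Tgfb1 0.015, Tgfbr2 0.030, Smad2 0.25, in the difference of changes Smad2 -0.15. With all cells, members turned as follows: in kidney label 24 against 3 weeks Smad2 0.050, Smad7 0.045, in spleen label 24 against 3 weeks Tgfbr2 -0.14, in kidney against spleen at 1 week Ski -0.15, in kidney against spleen at 3 weeks Ski -0.25, in spleen at 1 week against naive Smad2 0.0052. Without cells with other markers, members turned as follows: in kidney against spleen at 3 weeks Ski -0.0067, in rejecting kidney against spleen Smad2 0.11, in the Itgae split Smad2 -0.095. With thinned cells, members turned as follows: in the Itgae split Smad3 -0.15, Skil 0.0038. With at least 2 Itgae UMIs, members turned as follows: in the Itgae split Smad2 -0.057, Smad3 -0.092. With 1 library left out, Smad2 from -0.12 to 0.0087 in kidney label 24 against 3 weeks, Tgfb1 from -0.016 to 0.12 in spleen 3 against 1 week, Smad7 from -0.037 to 0.11 in kidney against spleen at 1 week, Ski from -0.00075 to 0.088 in kidney against spleen at 3 weeks, Tgfbr2 from -0.49 to 0.24 in rejecting kidney against spleen, Smad2 from -0.11 to 0.064 in rejecting kidney against spleen, Smad3 from -0.049 to 0.15 in spleen at 1 week against naive, Tgfb1 from -0.16 to 0.0069 in spleen at 1 week against naive, Ski from -0.096 to 0.034 in the difference of changes, Smad2 from -0.033 to 0.11 in the Itgae split, Skil from -0.036 to 0.028 in the Itgae split, Smad3 from -0.24 to 0.37 in the Itgae split. The cause of these changes was not tested. Smad3 rests on few UMIs, which limits small differences in it.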
